A study of Mus musculus with 9 samples.

Results

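The genes examined were 36 mouse genes of cell-matrix adhesion: the fibronectin gene Fn1, 10 laminin chain genes, 17 integrin alpha chain genes and 8 integrin beta chain genes, out of 21883 protein-coding genes with a position. They were listed by family name, and the list was chosen with earlier results of these data known. Chromatin immunoprecipitation followed by sequencing (ChIP-seq) had been used to find where the transcription factor TWIST1 lay on the genome, and a peak was given to a gene when its summit fell inside the gene body or, outside genes, when that gene was the nearest within 100 kb. At 17 of the 36 genes (47.2%) a region was present in all 4 libraries of TWIST1-expressing cells and in no control list, against 30.3% of all protein-coding genes. These 17 genes held 30 such regions. The strongest lay inside Lama3 and Lamc3, a laminin alpha and a laminin gamma chain gene.

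Integrins are receptors made of 1 alpha and 1 beta chain that tie the cell's cytoskeleton to the matrix outside it. Laminins are trimers of an alpha, a beta and a gamma chain and form the scaffold of basement membranes, while fibronectin is a fibrillar glycoprotein that several integrins bind. TWIST1 is a basic helix-loop-helix factor that binds the E-box, CANNTG, as a dimer with itself or with E proteins. It is known for its part in cranial mesenchyme and in epithelial-to-mesenchymal transition, in which cells leave an epithelium and change their contacts with the basement membrane.

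All libraries came from mouse embryonic stem cells (strain C57BL/6 per the labels) differentiated for 3 days, with doxycycline for 16 h before collection. The overexpressing cells (OE) were an A2loxcre line that had lost endogenous Twist1 (Twist1-/-) and carried a doxycycline-inducible Flag-Twist1 transgene. The knockout cells (KO) were Twist1-/-, had no inducible cassette and were given doxycycline in the same way, so neither group had endogenous TWIST1, and all TWIST1 in the OE cells came from the transgene. The sample labels call the material embryoid bodies, and the series text calls it neuroepithelium. Peak lists hold no expression values, so neither name was checked against marker genes. Peak lists of 4 OE ChIP libraries (numbers 1 to 4), 2 KO ChIP libraries (numbers 2 and 3) and 1 KO input, which is chromatin without immunoprecipitation, were used. Inputs of the OE cells (2 libraries) were not analysed here. The series text speaks of biological replicate experiments, but whether the libraries of a group came from separate clones is not given. The permutation p-values below therefore concern only how these libraries split into groups, and not variation between clones.

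The OE lists fell into a long and a short pair. OE libraries 2 and 3 listed 106750 and 87385 peaks over a typical background of 5.38 and 5.29 fragments at a position, whereas OE libraries 1 and 4 listed 22308 and 14078 peaks over 1.00 and 1.20 fragments. The KO ChIP libraries had a background of 4.73 and 5.09, near that of OE libraries 2 and 3, and listed 94 and 62 peaks. The KO input listed 1642 peaks. Fold enrichment below is the authors' caller's ratio of fragments at a summit to local background, each with 1 added. Backgrounds differ between libraries, so folds of different libraries are not on a single scale: they stand side by side as listed, their SD includes this difference, and a library is called high or low at a region by the region's rank in that library among the regions that all 4 OE libraries share. Percentiles are those of the fold within a library's whole list.

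The 36 genes were given 61, 288, 232 and 36 peaks in OE libraries 1 to 4 and 0 peaks in both KO ChIP libraries. Every OE library thus lay above both KO libraries, but the OE counts differed widely among themselves (mean 154 ± 125, SD, n = 4) and moved with list length. The difference in mean log2(count + 1) was 6.80, and the exact two-sided permutation test gave p = 0.0667, the smallest that 4 against 2 libraries can give. As a share of each list, the peaks at these genes made up 0.273%, 0.270%, 0.266% and 0.256% of the peaks in OE libraries 1 to 4 (mean 0.266% ± 0.00765, SD, n = 4), and the 4 OE libraries were alike. The share was 0 in the KO libraries, where a count of 0 allows up to 3.19% of 94 peaks and 4.84% of 62 peaks (exact permutation p = 0.0667 for the difference of 0.266 percentage points). At the mean OE share those KO lists would hold only 0.25 and 0.165 peaks at these genes, so a lower share in the KO cells was not detectable at this list length. A KO count of 0 was likewise to be expected from lists so short, so the count difference and its p-value show nothing particular to these genes. These limits cover counting error only.

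A peak was given to 23 of the 36 genes in OE library 1, to 35 in library 2, to 33 in library 3 and to 18 in library 4. Among all protein-coding genes the shares were 47.2%, 80.6%, 77.5% and 37.4%. In OE library 2 the exception was Itga7, a laminin-binding alpha chain. The KO ChIP libraries gave a peak to none of the 36, against 0.21% and 0.096% of all genes, and the KO input gave one to Lama1 and one to Itga5, against 5.28% of all genes. All 4 OE libraries had a peak at 18 of the 36 genes, against 35.1% of all genes. These genes occupy more of the genome than most: the median stretch from which a peak would be assigned was 115 kb, against 45.8 kb for all genes. Per megabase of that stretch, OE libraries 1 to 4 gave 11.8, 55.8, 44.9 and 6.97 peaks at the 36 genes and 10.6, 50.5, 42.0 and 6.81 at all genes, a small difference in each.

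**Figure D1:**
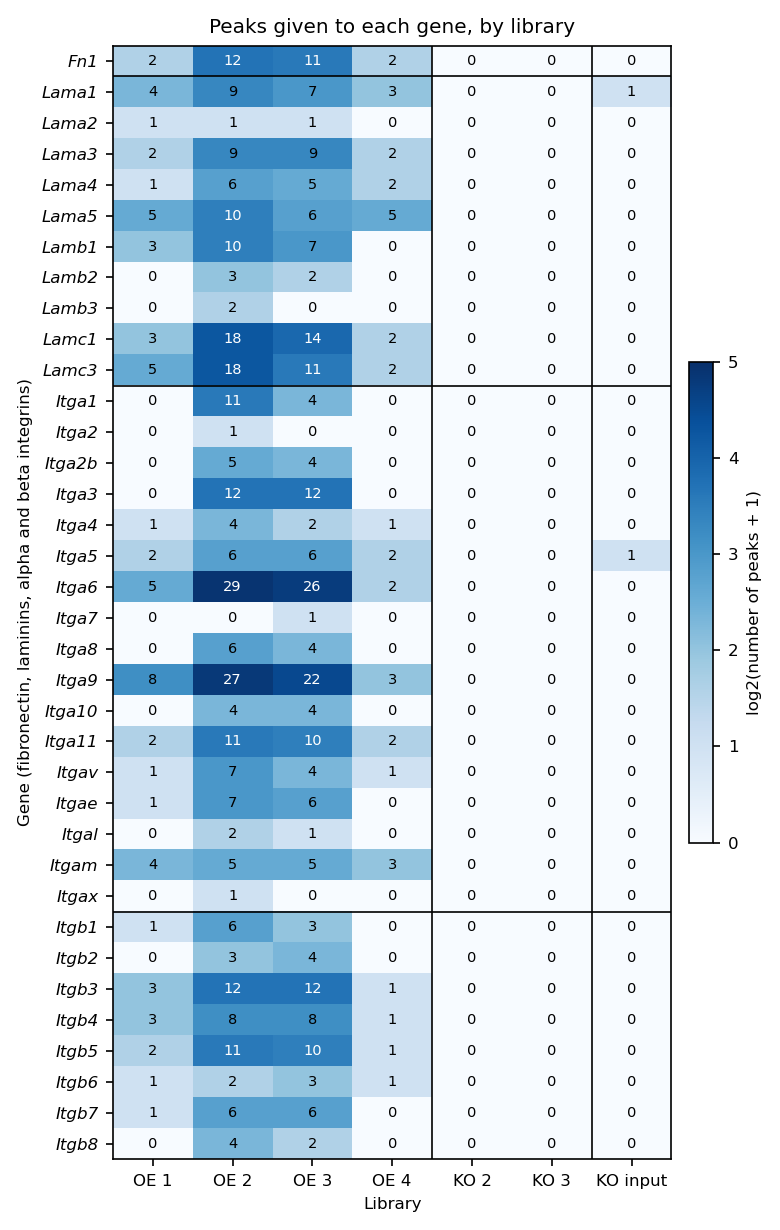
Number of peaks given to each of the 36 genes (rows, grouped as fibronectin, laminins, alpha and beta integrins) in each library (columns); the shade is log2(number of peaks + 1). Columns OE 2 and OE 3 are filled nearly throughout, OE 1 and OE 4 at fewer genes, both KO columns hold 0 throughout, and the KO input holds 1 peak at Lama1 and 1 at Itga5.

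A region was called reproducible when overlapping peaks of all 4 OE libraries merged into it without contact to a peak of any KO list. The whole genome held 10375 such regions. The 36 genes held 5.81 regions per megabase of their assigned stretches, against 4.98 for all genes, and 8 genes held 2 or more regions (22.2%), against 8.44% of all genes. The 17 genes with a region had longer stretches (median 161 kb) than the 19 without (median 61.3 kb), and the part of this length in the counts was not tested. Of the 30 regions 21 (70.0%) lay inside a gene body, against 57.1% of all reproducible regions. That total also counts regions given to no gene, which the 30 cannot include. Of the 9392 regions given to a gene, 5923 lay inside a gene body and 3206 within 1 kb of a gene end. Only 8 of the 30 (26.7%, exact binomial 95% interval 12.3 to 45.9%) had their position within 1 kb of an end of a gene, against 30.9% of all 10375. OE library 4 set the number of regions: the other 3 OE libraries alone gave 53 regions at 21 genes, and gave a region to 40.8% of all genes.

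**Figure D2:**
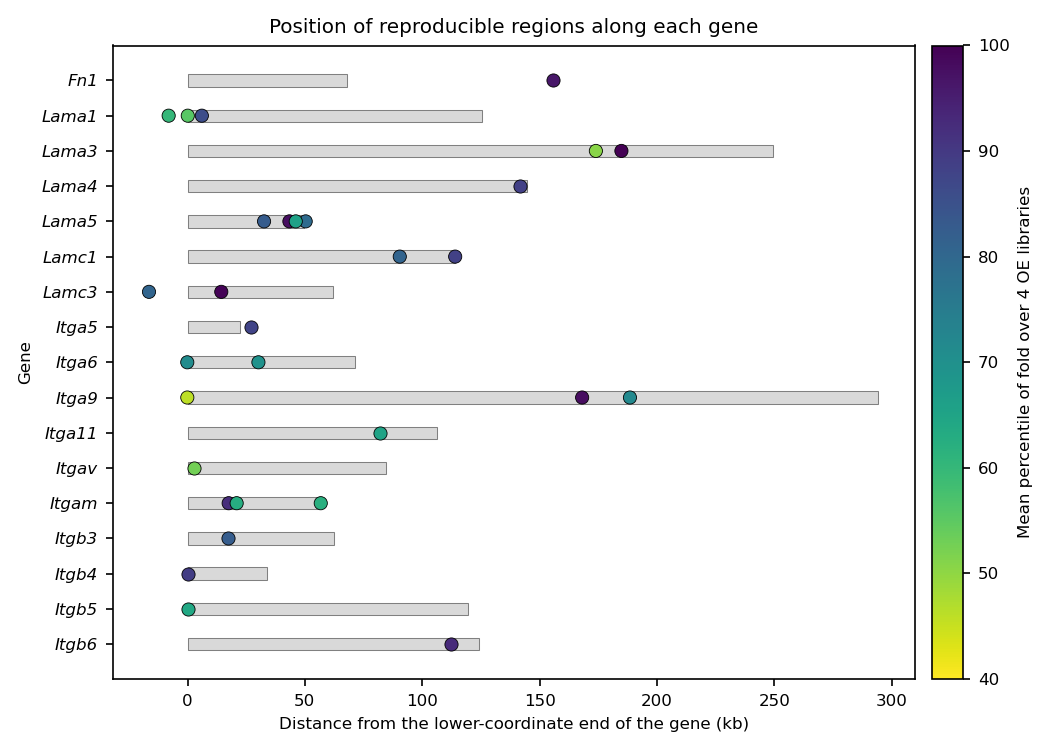
Positions of the 30 reproducible regions (circles) along the 17 genes that have one; the grey bar is the gene body, the x axis is the distance in kb from the lower-coordinate end, and the colour is the mean fold percentile in the 4 OE lists. The darkest circles lie inside Lama3, Lamc3, Itga9 and Lama5, and that of Fn1 lies outside the gene.

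The fibronectin gene Fn1 (chromosome 1, 71585473 to 71653280; all positions are on mm10) had its 1 reproducible region outside the gene, at 71740576 to 71742062, 87.9 kb beyond the upper-coordinate end. The fold there was 54.4 in OE library 1, 110.8 in library 2, 145.4 in library 3 and 26.3 in library 4 (mean 84.2 ± 53.8, SD, n = 4). It stood high in every OE list, between the 90.2nd and the 99.5th percentile, and the 4 summits lay within 25 bp of each other. A weaker region inside Fn1, at 71645688 to 71646536, reached 18.3, 22.6 and 5.73 in libraries 2, 3 and 4 and had no peak in library 1. Among the 24 further regions of the 36 genes that 3 OE libraries supported, it was the 1 that library 1 lacked, while the other 23 were absent from library 4. The whole genome leaned the same way. It held 17365 regions without OE library 4 in the rule and 11107 without OE library 1, against 10375 with all 4.

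Of the 10 laminin genes 6 (60%) held a reproducible region, against 30.3% of all genes, with 14 regions in all or 7.155 per megabase, against 4.98. These were the alpha chains Lama1, Lama3, Lama4 and Lama5 and the gamma chains Lamc1 and Lamc3. None of the 3 beta chain genes held one. Lama3 encodes the alpha chain of laminin-332, the anchor of epithelial basement membranes. At chromosome 18, 12517318 to 12518872, inside the gene and 64.7 kb from its nearer end, the fold was 260 in OE library 1, 687 in library 2, 676 in library 3 and 180 in library 4 (mean 451 ± 269, SD, n = 4). All 4 values stood at or above the 99.7th percentile of their list, and the 4 summits lay within 12 bp. The pileups of 519, 4383, 4252 and 395 fragments leave little counting error. A second region inside Lama3, 75.6 kb from the same end, had folds of only 6.49, 13.2, 8.90 and 5.54.

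Lamc3, a gamma chain known for its role in the cerebral cortex, had the next strongest region, at chromosome 2, 31900577 to 31902774, inside the gene and 14.4 kb from its lower-coordinate end. The folds were 140, 586, 522 and 108 in OE libraries 1 to 4 (mean 339 ± 250, SD, n = 4), with summits within 14 bp. Every OE list had it above the 99th percentile. Its other region lay 16.4 kb outside the gene, with folds of 15.5, 48.0, 51.8 and 10.4, higher in libraries 2 and 3 than in 1 and 4.

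Lama5, the most widely expressed laminin alpha chain, held 4 regions, more than any other of the 36. The leading region, at chromosome 2, 180218783 to 180220880, lay 6.12 kb inside the upper-coordinate end and had folds of 57.4, 115.0, 125.2 and 42.7 (mean 85.1 ± 41.1, SD, n = 4), above the 95th percentile in every OE list. Its other 3 regions had mean folds of 21.4 ± 7.77, 24.3 ± 14.6 and 15.7 ± 8.85 (SD, n = 4). In the last 2 of these the summits spanned 1785 and 724 bp, so their means join peaks at different positions. Lama1, an alpha chain of early embryonic basement membranes, held 3 regions within 8.04 kb of its lower-coordinate end. The leading one, at chromosome 17, 67702612 to 67703644, had folds of 22.5, 47.5, 48.5 and 12.7, high in OE libraries 2 and 3 and lower in OE libraries 1 and 4. The other Lama1 regions had mean folds of 13.1 ± 7.87 and 8.28 ± 1.65 (SD, n = 4).

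Lama4, an alpha chain of blood vessel and mesenchymal basement membranes, had 1 region at chromosome 10, 39106191 to 39107816, 3.10 kb inside the upper-coordinate end. The folds were 24.0, 20.2, 25.3 and 18.2 (mean 21.9 ± 3.28, SD, n = 4), at percentiles of 85.3, 93.5, 95.1 and 80.4 in their lists. Lamc1, the gamma chain of most laminins, had a region at its upper-coordinate end, at chromosome 1, 153331814 to 153334095, with folds of 32.9, 11.9, 11.6 and 26.8. Here OE libraries 1 and 4 were high and 2 and 3 low, and the summits of the 2 sets lay 892 bp apart, so they do not mark 1 shared position. The second Lamc1 region, 23.4 kb from that end, had folds of 16.6, 14.7, 10.5 and 15.9.

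Among the laminin genes without a reproducible region, Lamb1, the beta chain of the early embryonic laminin, had 3, 10, 7 and 0 peaks in OE libraries 1 to 4, and its strongest reached folds of 11.5, 21.6 and 16.5 in libraries 1 to 3. Lama2, the alpha chain of muscle laminin, had 1 peak in each of libraries 1 to 3, with folds of 6.49, 14.7 and 8.11, although its stretch of 743 kb was the longest of the 36. Both were listed in all OE libraries but the shortest list. Lamb2 and Lamb3 had peaks in OE libraries 2 and 3 or in library 2 alone, with no fold above 4.86.

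Of the 17 integrin alpha chain genes 6 (35.3%) held a reproducible region, near the 30.3% of all protein-coding genes. By ligand class these were 1 of the 4 collagen-binding chains (Itga11), 1 of the 3 laminin-binding chains (Itga6), 2 of the 4 chains that recognise the RGD motif of fibronectin and vitronectin (Itga5 and Itgav), 1 of the pair Itga4 and Itga9, and 1 of the 4 leukocyte chains (Itgam). No class had a region at more than 50% of its genes, and the classes are too small to compare with each other.

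Itga9 encodes the alpha9 chain, a receptor for tenascin-C and other matrix ligands. Its leading region, at chromosome 9, 118773981 to 118775682, lay deep inside the gene, 126 kb from the nearer end, with folds of 54.4, 215, 183 and 41.6 (mean 124 ± 88.5, SD, n = 4). All 4 stood above the 95th percentile of their list, and the summits lay within 10 bp. A second internal region had folds of 13.2, 16.5, 15.4 and 8.17, at percentiles of 66.75, 91.35, 90.2 and 38.5, with summits up to 557 bp apart. The third, at the lower-coordinate end of the gene, had 24.0, 3.29, 3.34 and 16.3: in OE libraries 2 and 3 it lay under 3.67, the fold a summit needed at the typical background to enter the list of KO library 2.

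Itgam, the alpha chain of the leukocyte receptor Mac-1, held 3 regions. The leading one, at chromosome 7, 128079694 to 128081093, was 17.5 kb inside the gene with folds of 35.8, 79.2, 94.2 and 17.3 (mean 56.6 ± 36.1, SD, n = 4), and all summits lay within 26 bp. The other Itgam regions had mean folds of 9.55 ± 2.09 and 16.0 ± 10.3 (SD, n = 4).

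Itga5 encodes the alpha chain of the main fibronectin receptor. Its region at chromosome 15, 103370712 to 103372147, lay 4.60 kb outside the upper-coordinate end, upstream of the gene, with folds of 22.96, 96.7, 62.0 and 14.1 (mean 48.9 ± 38.0, SD, n = 4). OE libraries 2 and 3 were again high and libraries 1 and 4 lower. At the Itga5 start site, 103365713 to 103368410, all 4 OE libraries also had a peak, with folds of 15.5, 17.4, 20.8 and 19.98, but a KO input peak of fold 3.75 overlapped it and it was left out of the 30. Part of that position was therefore also enriched in KO chromatin without immunoprecipitation, and no KO ChIP peak was listed there.

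Itga6, the alpha chain that pairs with beta1 or beta4 to bind laminin, had the most peaks of the 36 genes over the 4 OE libraries (62) and 2 regions. The region at the lower-coordinate end, chromosome 2, 71786554 to 71787188, had folds of 24.0, 6.27, 7.31 and 12.7, and the internal region at 71814515 to 71817534 had 10.7, 14.4, 24.5 and 7.95. The first ranked higher in libraries 1 and 4 and the second in libraries 2 and 3. Itga11, the alpha chain of a fibrillar collagen receptor of mesenchymal cells, had 1 internal region with folds of 11.0, 16.8, 9.54 and 7.26. Itgav, the alpha chain shared by several beta chains, had 1 region at chromosome 2, 83723962 to 83725477. It lay over a listed start site, 2.57 kb inside the lower-coordinate end of the gene, with folds of 19.96, 3.92, 3.66 and 21.3, high in OE libraries 1 and 4 and barely listed in libraries 2 and 3.

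The 11 alpha chain genes without a reproducible region were Itga1, Itga2, Itga2b, Itga3, Itga4, Itga7, Itga8, Itga10, Itgae, Itgal and Itgax. Itga4, which binds fibronectin and VCAM-1, had peaks in all 4 OE libraries, but at positions that did not overlap: 75.0 kb from the gene in OE libraries 1 and 4, and 69.5 kb in libraries 2 and 3, with folds of 5.49, 7.68, 5.24 and 4.99. Itga3, a laminin-binding chain of epithelia, had 0, 12, 12 and 0 peaks, the strongest with folds of 15.7 and 14.6 in OE libraries 2 and 3. Itga1, Itga2b, Itga8, Itga10 and Itgal likewise had peaks in both of the long lists and in neither short one. Itga2, Itga7 and Itgax had 1 peak each, in 1 long list.

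Among the 8 integrin beta chain genes Itgb3, Itgb4, Itgb5 and Itgb6 had 1 region each, 4.14 per megabase against 4.98 for all genes. Itgb6 encodes an epithelial chain that pairs with alphav. Its region at chromosome 2, 60709845 to 60711091, 12.1 kb inside the upper-coordinate end, had folds of 29.0, 145.9, 112 and 19.98 (mean 76.7 ± 62.0, SD, n = 4), with summits within 28 bp. Itgb3, the beta chain of the platelet and vitronectin receptors, had a region 17.2 kb inside the gene, at chromosome 11, 104624370 to 104625738, with folds of 15.5, 63.6, 41.3 and 11.8. At both genes OE libraries 2 and 3 gave the higher ranks.

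Itgb4, the laminin-binding beta chain of hemidesmosomes, was the reverse. Its region at the lower-coordinate end, chromosome 11, 115974583 to 115975944, had folds of 46.9, 10.2, 11.0 and 40.4 (mean 27.1 ± 19.3, SD, n = 4), and the 4 summits still fell within 16 bp. Itgb5, another partner of alphav, had a region at its start site with folds of 14.5, 8.93, 6.52 and 8.63, none above the 78.8th percentile of its list. Itgb1, the beta chain with which most alpha chains pair, had 1, 6, 3 and 0 peaks and no reproducible region, and Itgb2, Itgb7 and Itgb8 had none either. Counting regions that at least 3 OE libraries supported added Lama2, Lamb1, Itgae and Itgb7, for 21 of 36 genes against 43.1% of all genes.

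**Figure D3:**
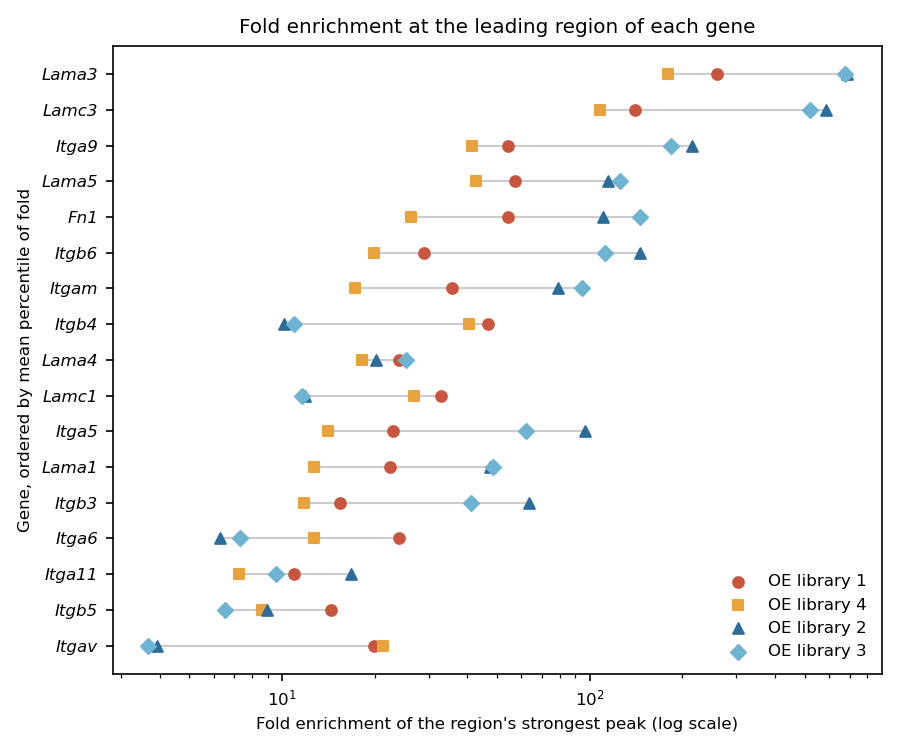
Fold enrichment (log scale) of the strongest peak in the leading region of each of the 17 genes, 1 point per OE library, genes ordered by mean percentile; the grey line joins the lowest and the highest. The listed folds of OE libraries 2 and 3 are the larger ones at Lama3, Lamc3, Itga9 and Fn1, and those of OE libraries 1 and 4 at Itgb4, Lamc1, Itga6 and Itgav; the libraries differ in background.

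The difference between the 2 sets of OE libraries followed position. Each region was ranked within each library among the same 10375 regions, and the mean rank in libraries 2 and 3 was subtracted from that in libraries 1 and 4. The 8 regions near a gene end had a median gap of 25.9 percentile points and were higher in libraries 1 and 4 in 5 cases (62.5%), while the 22 others had a median of -13.05 and were higher there in 4 cases (18.2%). Only the outer ends of genes were used, so the Itgav region, over a listed start site inside its gene, was among the 22. Over all reproducible regions the medians were 32.5 and -15.4, and the shares were 77.2% and 28.7%. The widest gaps in favour of libraries 1 and 4 were 70.1 points at the end of Itga9, 68.0 at Itgav, 53.6 at Itgb4, 43.5 at the end of Lamc1 and 40.2 at the end of Itga6. The widest the other way were -49.3 at the Itgam region 0.921 kb from a gene end, which went against the median of its class, -42.55 at an internal Lama5 region and -42.05 at the Lama1 region outside the gene. Across the 30 regions Spearman's rho of fold was 0.957 between OE libraries 1 and 4 and 0.949 between 2 and 3, but 0.385 to 0.547 for the other 4 pairs; regions of 1 library share its depth, and no test was made. Background level and list length differ between the same sets of libraries, and their part in the gap was not tested. The labels name no batch.

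**Figure D4:**
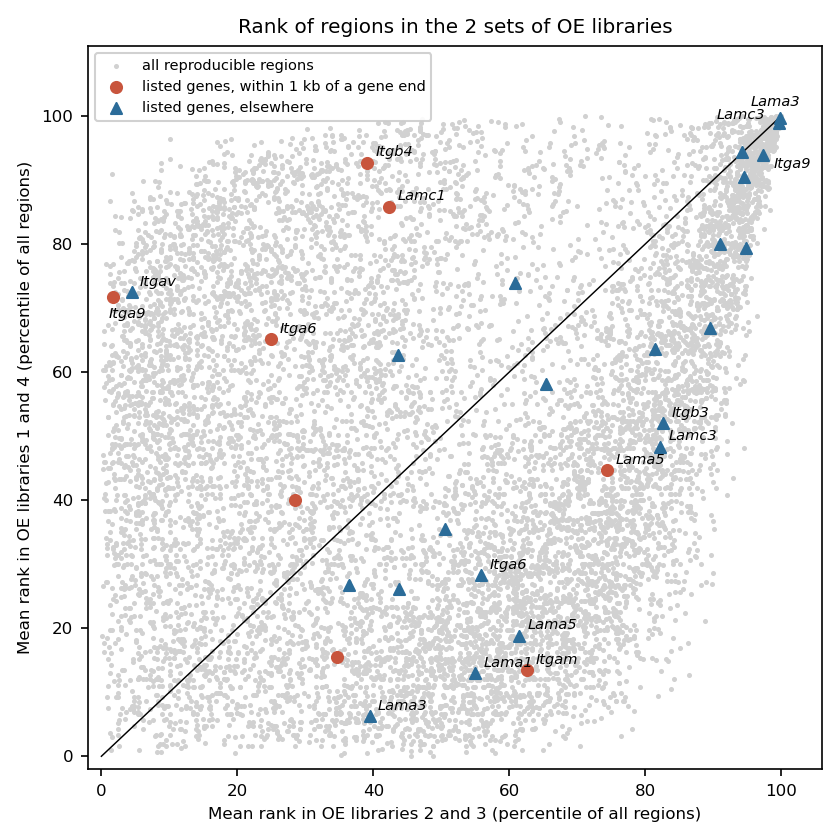
Mean rank of each reproducible region in OE libraries 2 and 3 (x axis) and in OE libraries 1 and 4 (y axis), in percentiles of the 10375 regions; grey points are all regions, red circles and blue triangles the 30 regions of the listed genes near a gene end and elsewhere, and the line marks equal ranks. Itgb4, Lamc1, Itgav and the gene-end regions of Itga6 and Itga9 lie far above the line, and Lama3, Lamc3 and Itga9 reach the upper right corner.

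The 7 regions of the 36 genes with a mean percentile of 90 or more (at Fn1, Lama3, Lama5, Lamc3, Itga9, Itgam and Itgb6) had their 4 summits within 28 bp or less. A region could rank high in every list and still be less sharp: at the end of Lamc1 no library fell under the 85.2nd percentile, above the lowest of Itgam and Itgb6 (78.6 and 83.5), and the summits spanned 901 bp. None of these 7 lay within 1 kb of a gene end, and the nearest, at Lama5, was 6.12 kb from one. Across all 30 regions the 4 summits fell within 50 bp in 11 cases, against 36.01% of all reproducible regions. They lay over 300 bp apart in 8 cases, against 24.75%, and a mean fold there joins peaks at different positions. In 28 of the 30 regions the fold in OE libraries 2 and 3 exceeded the level at which KO library 2 could list a summit at its typical background (94.0% of all regions). The exceptions were the gene-end region of Itga9 and Itgav. At Itga9 both libraries lay under the level of KO library 2 (3.67) and of KO library 3 (3.61), so a like enrichment over the typical background would not have been listed there. The KO lists do hold lower folds where the local background was higher, with medians of 3.51 in KO library 2 and 2.88 in KO library 3. The local KO background at Itga9 is not known. At Itgav only OE library 3, with 3.655, lay under the level of KO library 2, and both libraries exceeded that of KO library 3.

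The sequence at the start sites of these genes could be read for promoters only, from 250 bases before to 50 after a start site in RefSeq (build GRCm38.p6, whose main chromosomes have the coordinates of mm10). A window was found for 23 of the 36 genes, 26 windows in all. Peaks of OE libraries 1 to 4 overlapped 5, 13, 10 and 4 of the 26, against 16.3%, 39.1%, 40.4% and 13% of all 32851 windows, peaks of the KO ChIP libraries overlapped 0, against 0.00304% and 0%, and the KO input overlapped 1 (Itga5), against 1.56%. All 4 OE libraries overlapped 3 windows (Itga5, Itgb5 and Lama5), against 9.48%, and at least 3 libraries overlapped 5 (also Itgav and Itgb1), against 14.8%. The 3 windows that all 4 OE libraries overlapped are printed, with that of Itgav, the strongest in libraries 1 and 4, for contrast. Each runs 5′ to 3′ along the gene's strand with every CANNTG (both strands read the same) in capitals. They are Itgb5 at chr16:33829415-33829714 (plus strand), Itga5 at chr15:103366742-103367041 (minus), Lama5 at chr2:180225810-180226109 (minus) and Itgav at chr2:83724147-83724446 (plus).
Itgb5: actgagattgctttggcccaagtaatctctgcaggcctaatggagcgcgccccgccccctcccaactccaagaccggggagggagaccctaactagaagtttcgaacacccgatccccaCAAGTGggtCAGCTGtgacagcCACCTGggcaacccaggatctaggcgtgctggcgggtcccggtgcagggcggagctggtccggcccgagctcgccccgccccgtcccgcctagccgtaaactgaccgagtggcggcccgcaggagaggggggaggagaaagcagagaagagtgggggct
Itga5: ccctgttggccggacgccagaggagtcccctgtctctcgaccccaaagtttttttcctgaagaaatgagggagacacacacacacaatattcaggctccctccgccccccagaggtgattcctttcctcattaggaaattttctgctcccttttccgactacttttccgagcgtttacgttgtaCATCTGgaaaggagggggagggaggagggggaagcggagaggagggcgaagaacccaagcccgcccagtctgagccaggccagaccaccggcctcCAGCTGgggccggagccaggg
Lama5: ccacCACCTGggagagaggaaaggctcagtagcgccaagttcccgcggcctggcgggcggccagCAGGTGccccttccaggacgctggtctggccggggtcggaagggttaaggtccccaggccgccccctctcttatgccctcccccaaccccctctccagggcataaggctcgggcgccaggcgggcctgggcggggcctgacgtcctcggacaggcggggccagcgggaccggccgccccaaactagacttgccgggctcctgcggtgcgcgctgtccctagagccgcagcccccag
Itgav: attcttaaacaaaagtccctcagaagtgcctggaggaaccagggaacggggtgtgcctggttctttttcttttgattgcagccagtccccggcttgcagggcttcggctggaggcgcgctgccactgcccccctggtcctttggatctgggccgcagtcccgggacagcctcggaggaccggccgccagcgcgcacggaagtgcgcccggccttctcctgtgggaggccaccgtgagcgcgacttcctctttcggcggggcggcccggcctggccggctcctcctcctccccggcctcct

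The Itgb5 window holds 3 E-boxes close together, of which CACCTG is the one nearest to the start site. The summits of OE libraries 2 and 3 lay 2.5 and 10.5 bp from the centre of CACCTG, while those of libraries 1 and 4 lay 351.5 and 405.5 bp from it, past the start site. The Itga5 window holds CATCTG 66 bases before the start site and CAGCTG after it. There the summits of OE libraries 2 and 3 lay 9.5 and 11.5 bp from CATCTG. Those of libraries 1 and 4 and of the KO input lay 75.5, 82.5 and 100.5 bp from the nearest E-box of the window. At both genes the summits of the longer lists lay within 20 bp of an E-box centre. Those of the shorter lists fell outside the window, where the sequence was not read, so a nearer E-box could not be seen. The Lama5 window holds CACCTG at 246 and its reverse complement at 186 bases before the start site. There the summits of OE libraries 1 to 4 lay 118.5, 101.5, 1419.5 and 284.5 bp from the nearest E-box of the window. The summits of libraries 3 and 4 fell outside the window, in sequence that was not read. Itgav, like Itgb1, has no CANNTG in its window.

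The motif is common and does not mark these windows out. CANNTG was present in 22 of the 26 windows (84.6%) and in 72.3% of all windows, in 66.6% of the windows that all 4 OE libraries overlapped and in 77.7% of those that none overlapped. The GC content of the last 2 sets differed, with medians of 69.7% and 47.0%, and its part in these shares was not tested. Over all windows with exactly 1 summit, the summit lay within 20 bp of an E-box centre in 22.8%, 40.7%, 38.7% and 18.9% for OE libraries 1 to 4 and in 10.3% for the KO input. Among the overlapped windows of the listed genes this held for 0 of 5, 2 of 13, 3 of 10 and 0 of 4 in OE libraries 1 to 4. The genes were Itga5 and Itgb5 in both longer lists and Itga3 in library 3. These counts take every overlapped window, also where the summit fell outside it, so they cannot be set against the shares over all windows. At Itga9, Lamb1, Itgb8 and Itga1 the summits of the longer lists lay 66.5 to 762.5 bp from the nearest E-box centre of the window. Some of these summits fell outside the sequence read. A match is a description of letters and not of binding, and the strongest regions, inside Lama3, Lamc3 and Itga9, lie outside the windows that could be read.

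Among genes that work with these receptors, 12 of 20 other basement membrane and matrix genes and 15 of 20 cytoplasmic partners of integrins held a reproducible region, against 30.3% of all genes. They had 6.28 and 9.88 regions per megabase, against 4.98. Nid2, the basement membrane linker nidogen-2, lay 89 bp from its region, where the folds in OE libraries 1 to 4 were 84.8, 169, 153 and 54.0, and Col4a4, a collagen IV chain, had 66.4, 169, 94.4 and 51.3. Both stood high in all 4 lists, as Lama5 and Fn1 did. Fermt2, which encodes the integrin activator kindlin-2, had 42.4, 17.2, 14.6 and 28.6, and Actn4, an actin cross-linker, had 60.9, 8.15, 8.26 and 44.0. At these 2 genes the listed fold was larger in OE libraries 1 and 4, as at Itgb4 and Lamc1. The genes of both lists without a region were Col4a1, Col4a2, Col4a3, Col4a5, Col4a6, Vtn, Tnc and Frem1, and Fermt3, Ilk, Lims2, Zyx and Kank1.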

How the data were processed

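TWIST1 ChIP-seq peak lists of 4 OE ChIP, 2 KO ChIP and 1 KO input library were used, grouped by sample title. The submitters' processing notes name the tools MACS2, BWA, Picard and Trimmomatic, and as builds GRCm38.p5 and mm10. For tool versions, tool settings and the caller's control, the entry is "not given in the sources used here", although the control affects the number and the height of listed peaks. The deposited lists are per library, so nothing was pooled before peak calling. For each peak the authors' caller gave a fold enrichment, which is a linear ratio to local background. The authors' caller also gave −log10 of a p-value and of a q-value, and the deposited score, a rounded multiple of the latter, was used only to check the layout.

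Read totals are not in the lists, so depth was approached from the fold and the p-value, which together fix the fragments at a summit and the background. Lists were limited to the 21 main chromosomes. OE peaks sharing at least 1 bp were merged, regions of 4 OE libraries without KO overlap were kept, and each was placed at the median of the 4 summits. Every gene whose body held that point was counted, else the nearest within 100 kb. Gene positions and promoter sequences came from RefSeq tables (GRCm38.p6). They have no exons, so exons, introns and UTRs were not told apart, and motifs were read in promoter windows only. Libraries were compared with exact two-sided permutation tests over all 15 splits. Python 3.11.15, numpy 2.4.6, pandas 2.3.3, scipy 1.17.1 and matplotlib 3.10.9 were used. The merging of peaks with removal of overlaps, the assignment to genes and the recovery of pileups were tested on simulated data, and the other steps were not.

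The genes and lists were chosen with earlier results of these data known. Full values were to be given for the 12 genes with the highest mean percentile of fold, the 5 with most regions and Fn1, and every gene without a region was to be named; the other genes with a region and single partner genes were described after their values were seen. Alternatives covered limits on the q-value, the overlap, the libraries required, list length, the distance to a gene and leaving out each replicate.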

Additional observations from a re-analysis of the deposited data

How the results depend on the processing

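All 17 genes with a reproducible region kept one under the q-value limit of 5 on the −log10 scale. They also kept one without removal of KO overlaps and without OE library 1, 2, 3 or 4. Those settings loosen the rule, so that outcome was nearly fixed in advance. Fewer kept one, as among all genes (shares in parentheses), at a −log10 q of at least 10 (15 genes, 20.6% of all genes), with peaks sharing 50% of their length (15, 25.9%), with summits within 200 bp (14, 20.7%), with lists of equal length (12, 15.7%), within 50 kb (16, without Fn1, 29.45%) and inside gene bodies alone (15, without Fn1 and Itga5, 21.2%). Over the 15 settings, of which the looser ones could hardly remove a gene, 10 genes had a region in each: Lama1, Lama3, Lama4, Lama5, Lamc3, Itga6, Itga9, Itgam, Itgb3 and Itgb6.

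The number of regions moved more than the number of genes. It was 19 with summits within 200 bp, 18 with equal list lengths and 54 with at least 3 of 4 libraries. Leaving out 1 OE library gave 30 to 53, with 53 without OE library 4, the shortest list, where 40.8% of all genes had a region. OE libraries 2 and 3 alone, a choice made after seeing the data, gave 201 regions at 32 genes, where 74.35% of all genes had one; OE libraries 1 and 4 alone gave 33 regions at 18 genes, where 33.4% of all genes had one. These settings change how many peaks or libraries must meet at a region. The share near a gene end was 18.9 to 26.7% over the leave-one-out settings.

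For the peaks per library the difference in mean log2(count + 1) was 6.21 to 8.02 over 11 alternatives, and 6.34 to 7.33 with 1 library left out (exact permutation p = 0.1 to 0.2, the smallest those splits allow). With numbers 2 and 3 as a replicate block the difference was 8.02, and that of the share 0.268 percentage points (exact permutation p = 0.5 for both, the smallest for 2 pairs). Whether the numbers pair the libraries could not be checked, since both KO libraries had 0 peaks at these genes.

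Depth sets the main limits. At the 30 regions the pileup at a summit was 10 to 4383 fragments, and the lowest values were in OE libraries 1 and 4. A fold of 5.49 from 10 fragments, as at Itga4, has a 95% Poisson interval of 2.89 to 9.68, from counting error only. Read totals, the OE inputs and expression were not used here, so a region shows listed enrichment and not a change in the gene's expression.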

Other observations

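Classical cadherins, which join cells to each other instead of to the matrix, were counted for comparison as another adhesion family. Of 17 genes 13 held a reproducible region, against 30.3% of all protein-coding genes. They had 3.28 regions per megabase, against 4.98 for all genes and 5.81 for the integrin, laminin and fibronectin genes. The assigned stretches of the cadherin genes summed to 6.71 Mb, against 5.16 Mb for the 36 genes. Cdh4, the gene of R-cadherin, had folds of 110, 621, 511 and 98.5 in OE libraries 1 to 4, the highest mean percentile among the leading regions of the cadherin genes and close to Lamc3 in every library. Cdh1, the gene of epithelial E-cadherin, had 16.0, 32.9, 44.3 and 9.08, in the range of Lama1. Cdh2, the gene of N-cadherin, had 10.48, 4.86, 4.61 and 8.63. No test was run between the families.

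The KO input peak inside Lama1, at chromosome 17, 67741362 to 67741531, had a fold of 5.64 from a pileup of 186 over a local background of 32.2, against a typical 6.46 in that library. No OE library had a peak there.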
